A study of Mus musculus with 18 samples.

Results

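A set of 10 genes for myeloid cytokine receptors, Fc receptors and an integrin was followed across 2 RNA-seq experiments on mouse leukemic cells. They are the cytokine receptor genes Csf1r, Csf3r, Csf2rb, Csf2ra and Il3ra, the Fc receptor genes Fcgr1, Fcgr3, Fcgr2b and Fcer1g, and the integrin gene Itgam. Rows were taken by exact gene symbol, which gave 10 of 25628 genes in the table of experiment 1 and 10 of 26903 in the table of experiment 2. The cells were TgSpi1 erythroleukemic blasts of a single line, number 763, which overexpress the transcription factor SPI1 (PU.1) and grew in culture with erythropoietin. All 6 groups carried a doxycycline-inducible short hairpin RNA against Spi1. In experiment 1, cells given doxycycline for 48 h were compared with untreated cells. In experiment 2, the groups were doxycycline for 48 h plus entinostat, an inhibitor of HDAC1 and HDAC3 given at 3 µM for 6 h, then entinostat alone, doxycycline plus the vehicle DMSO, and DMSO alone. Each group had 3 libraries, which the labels call biological replicates without naming their source, so p-values measure the spread between these libraries. The groups analysed here include no control hairpin, so effects of the hairpin and of doxycycline itself cannot be told apart.

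The receptors for IL-3 and GM-CSF pair a ligand-specific alpha chain, encoded by Il3ra and Csf2ra, with a shared signalling chain encoded by Csf2rb, and they act through JAK2 and STAT5. Csf1r encodes the receptor tyrosine kinase for CSF-1 and IL-34 that macrophages depend on, and Csf3r encodes the receptor for G-CSF that granulocytes depend on. Fc gamma receptors bind IgG: FcγRI (Fcgr1) and FcγRIII (Fcgr3) are activating receptors that signal through the common gamma chain (Fcer1g), whereas FcγRIIB (Fcgr2b) is inhibitory. Itgam encodes CD11b, which pairs with the Itgb2 chain to form complement receptor CR3. SPI1 is known to activate genes of several such receptors in myeloid cells, while erythroid cells keep few of them.

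On the mm10 build, 3 of the Fc receptor genes lie near each other on chromosome 1, Fcgr2b at chr1:170958617-170976547, Fcgr3 at chr1:171051174-171064935 and Fcer1g at chr1:171229572-171234365, all on the minus strand, with Fcgr4 between the first pair at chr1:171018920-171029761. Fcgr1 lies at chr3:96282909-96293969 and Csf2rb at chr15:78325752-78353847, next to its copy Csf2rb2 at chr15:78282507-78305721. The remaining members are on other chromosomes, Csf3r on 4, Itgam on 7, Il3ra on 14, Csf1r on 18 and Csf2ra on 19.

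The promoters of Fcgr1 and Fcgr3, both activating Fc receptor genes that fell with doxycycline, are shown with that of their relative Fcgr4 because each holds GAGGAA, the core that SPI1 is known to bind. The sequences are from RefSeq on GRCm38.p6, run 5′ to 3′ on the gene's strand, lie in no annotated exon of GENCODE release M21, and have the match in capitals, here on the opposite strand as TTCCTC. Fcgr1 is at chr3:96293970-96294069 on the minus strand and its match begins 55 bases before the start of transcription. Fcgr3 is at chr1:171059404-171059503 on the minus strand, with the match 6 bases before the RefSeq start, which lies inside the longer GENCODE gene. Fcgr4 is at chr1:171018820-171018919 on the plus strand, with the match 22 bases before the start.
Fcgr1: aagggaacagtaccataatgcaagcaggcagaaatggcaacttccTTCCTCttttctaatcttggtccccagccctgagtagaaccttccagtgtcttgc
Fcgr3: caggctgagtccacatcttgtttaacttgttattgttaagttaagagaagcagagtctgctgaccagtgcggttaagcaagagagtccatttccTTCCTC
Fcgr4: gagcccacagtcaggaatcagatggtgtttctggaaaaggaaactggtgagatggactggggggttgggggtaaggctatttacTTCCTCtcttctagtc
Searched on both strands over the 250 bases before the start, these 6 letters were found in 5 of the 8 genes with an entry that was read (Fcgr1, Fcgr3, Csf3r, Itgam and Csf2ra), and not in those windows of Fcgr2b, Fcer1g and Il3ra. Over all 27018 promoters, 23.1% hold them. Of the 250 bases, 203 for Fcgr2b, 220 for Il3ra and 109 for Csf3r are annotated exon. The absence in Fcgr2b and Il3ra thus says little about sequence outside exons. Csf2rb is named only, and the Csf1r window was not used here.

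The libraries of experiment 1 held 82.7 to 114 M counts each, and those of experiment 2 held 43.1 to 48.9 M. Spi1 itself fell in all 3 doxycycline comparisons, with log2 fold changes of -1.73 ± 0.10 in experiment 1 (edgeR adjusted p = 0.000828), -1.29 ± 0.33 in DMSO (adjusted p = 0.0264) and -1.59 ± 0.33 in entinostat (adjusted p = 0.00722). The first doxycycline plus DMSO library and the first entinostat library stood apart: the median difference over all genes tested to the other libraries of the group averaged 0.59 on the log2 scale for each, against 0.16 to 0.35 for the other 10 libraries of experiment 2. Results of experiment 2 are therefore also given without both. All 14 erythroid markers listed averaged at least 1 CPM (a gene's counts scaled to the library total with TMM factors) in every group, matching the erythroid label. Of 13 macrophage and monocyte markers in the tables, 1 to 4 reached that level, depending on the group.

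Per kilobase of exon, the shared chain Csf2rb stood highest among the 10 genes in every group. In DMSO alone it averaged 3.08 CPM per kb, ahead of the alpha chains Csf2ra at 0.636 and Il3ra at 0.542 CPM per kb and of Fcgr1 at 0.403 CPM per kb. Then came Fcgr3 at 0.114, Fcer1g at 0.0332, Fcgr2b at 0.0305 and Csf1r at 0.0127 CPM per kb, while Csf3r and Itgam had no count. By library, Fcgr1 spanned the level of Il3ra, Fcer1g spanned that of Fcgr2b, and Csf1r overlapped Fcgr2b, so these neighbours did not differ beyond their spread. In entinostat alone the order after Csf2rb (21.9 CPM per kb) was Fcgr1 at 2.20, Il3ra at 1.35, Fcgr2b at 1.33, Csf2ra at 1.13 and Fcgr3 at 0.827 CPM per kb. By library Il3ra, Fcgr2b and Csf2ra overlapped, as did Csf2ra and Fcgr3, so their order did not hold beyond the spread. The receptor set was thus led by the IL-3 and GM-CSF receptor chains in the vehicle, with Fc gamma receptors among the leading genes in entinostat alone.

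In experiment 1, Fcgr1 was the one member called lower with doxycycline when replicate numbers were ignored, and 4 members were called with them as a block. Fcgr1 averaged 0.0837 CPM in doxycycline-treated cells against 0.853 CPM in untreated cells. Fcgr2b and Fcgr3, the other Fc gamma receptor genes of the set, were also lower, Fcgr2b not tested and Fcgr3 not called without the block. Fcgr1 had 0.0934, 0.112 and 0.0458 CPM in doxycycline-treated libraries, against 1.02, 0.718 and 0.823 CPM in untreated libraries. All 3 treated libraries lay far below all 3 untreated ones. The log2 fold change was -3.31 ± 0.32 (SE; edgeR quasi-likelihood test, adjusted p = 0.00197). Of the 10 members, 6 passed the filter on low counts and 1 was called lower, against a background of 8.36% of all genes tested. With the replicate number as a block, which the check of the numbers took as pairing, Csf2rb, Fcgr3 and Csf2ra passed too (edgeR adjusted p = 0.00193, 0.0199 and 0.0361). That fit called 24.7% of all genes lower. Groups did not overlap, with doxycycline lower, for 4 of the 10 members (Fcgr1, Fcgr2b, Fcgr3 and Csf2rb), against 16.8% of all genes tested. That share covers only genes that passed the filter, which Fcgr2b did not. These are bulk RNA samples, in which fewer cells of a type and less RNA per cell cannot be told apart.

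Fcgr3 had 0.0208, 0.0407 and 0.0916 CPM in doxycycline-treated libraries, against 0.120, 0.126 and 0.158 CPM in untreated libraries. Its log2 fold change of -1.40 ± 0.47 did not pass the threshold (edgeR adjusted p = 0.117), but did so with the replicate number as a block (adjusted p = 0.0199). Fcgr2b, the inhibitory receptor, was too low to be tested after the filter: it had 1 count in every treated library, against 12, 11 and 13 counts in untreated libraries. A value of 1 is the smallest of this table for any gene and may have been added to every count, so it may stand for a gene without reads. Subtracting it, Fcgr2b was at least 10.9-fold lower with doxycycline, taking 3 counts over the group as the floor, and it passed the edgeR test when no filter was used (adjusted p = 0.00437). Part of Fcgr2b and Fcgr3 cannot be told apart by short reads, as 4.48% of the 50-base stretches of Fcgr2b and 10.2% of those of Fcgr3 are shared.

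**Figure D1:**
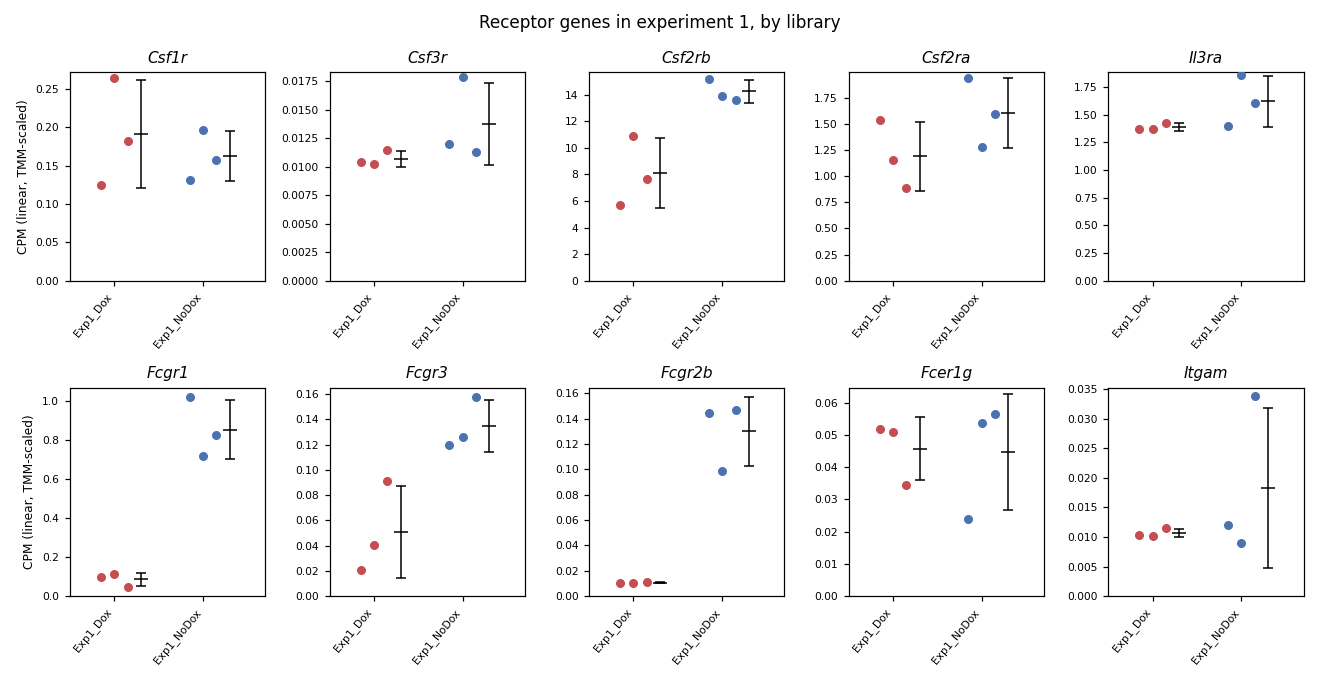
CPM of the 10 genes in experiment 1 on linear axes, doxycycline left and untreated right; points are libraries, and black bars the mean ± SD of 3. Fcgr1, Fcgr2b, Fcgr3 and Csf2rb have all doxycycline libraries below all untreated ones; a count of 1 is the table's smallest value.

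The cytokine receptor chains moved less in experiment 1. Csf2rb had 5.73, 10.9 and 7.68 CPM in doxycycline-treated libraries, against 15.2, 13.9 and 13.6 CPM in untreated libraries. The groups were separate, and the log2 fold change was -0.81 ± 0.23, short of the threshold without the block (edgeR adjusted p = 0.0751) and past it with the block (adjusted p = 0.00193). Csf2ra had 1.54, 1.15 and 0.882 CPM in treated libraries, against 1.94, 1.28 and 1.59 CPM in untreated libraries, and the groups overlapped (log2 fold change -0.43 ± 0.26, edgeR adjusted p = 0.375, with the block 0.0361). With the block, 4 members were called lower, in a fit that called 24.7% of all genes lower. Il3ra had 1.37, 1.37 and 1.43 CPM with doxycycline, against 1.40, 1.86 and 1.61 CPM without, a log2 difference of -0.22 with a 95% interval of -0.52 to 0.07. Csf1r had 0.125, 0.265 and 0.183 CPM with doxycycline, against 0.132, 0.197 and 0.158 CPM without, overlapping groups with a log2 difference of 0.22 and an interval of -0.44 to 0.88. Fcer1g, Csf3r and Itgam had at most 6 counts in any library and were not tested.

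In experiment 2, the 3 Fc gamma receptor genes of the set fell with doxycycline both in DMSO and in entinostat, and rose with entinostat both without and with doxycycline. When only the 2 DMSO groups were fitted, Csf1r, Csf3r, Fcgr2b and Fcgr3 did not pass the filter and were not tested, and Fcgr1 was called (edgeR adjusted p = 0.00731). Fcgr1 had 0.336, 0.5 and 0.374 CPM in doxycycline plus entinostat, 5.29, 5.39 and 6.43 CPM in entinostat alone, 0.0246, 0.0216 and 0.0646 CPM in doxycycline plus DMSO, and 0.449, 1.15 and 1.53 CPM in DMSO alone. The 4 groups separated almost fully: entinostat alone was highest, doxycycline plus DMSO lowest, and doxycycline plus entinostat overlapped only the lowest DMSO library. Doxycycline changed Fcgr1 by -4.71 ± 0.56 on the log2 scale in DMSO (edgeR adjusted p = 0.000131) and by -3.81 ± 0.40 in entinostat (adjusted p = 0.000114). Entinostat changed it by 2.45 ± 0.37 without doxycycline (adjusted p = 0.000171) and by 3.34 ± 0.61 with it (adjusted p = 0.000475). The doxycycline plus DMSO libraries hold only 1, 1 and 3 Fcgr1 counts, so the size of both folds against that group is loosely set.

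Fcgr2b had 15, 13 and 16 counts (0.336, 0.296 and 0.352 CPM) in doxycycline plus entinostat and 356, 433 and 416 counts (7.48, 7.91 and 7.71 CPM) in entinostat alone. It had no count in the 3 doxycycline plus DMSO libraries and 10, 5 and 9 counts (0.225, 0.109 and 0.196 CPM) in DMSO alone. No 2 of the 4 groups overlapped, and entinostat alone averaged 7.70 ± 0.217 CPM (SD, n = 3). Fcgr2b rose by 5.43 ± 0.31 on the log2 scale with entinostat alone (edgeR adjusted p = 6.79e-07) and fell by 4.54 ± 0.29 when doxycycline was added to entinostat (adjusted p = 1.42e-05). Against the group without counts only bounds can be given: at least 7.83-fold lower with doxycycline in DMSO (adjusted p = 0.000525) and at least 14.6-fold higher with entinostat in doxycycline-treated cells (adjusted p = 1.9e-05). In entinostat alone Fcgr2b outnumbered Fcgr1 in CPM, whereas per kilobase Fcgr1 was the higher of the pair.

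Fcgr3 had 0.560, 0.136 and 0.154 CPM in doxycycline plus entinostat and 1.95, 1.15 and 1.20 CPM in entinostat alone. In doxycycline plus DMSO it had 1, 0 and 1 counts, and in DMSO alone 0.180, 0.152 and 0.262 CPM. Each pair of groups compared was separate. Fcgr3 fell by 2.33 ± 0.51 with doxycycline in entinostat (edgeR adjusted p = 0.00872) and rose by 2.84 ± 0.53 with entinostat alone (adjusted p = 0.00074), on the log2 scale. With 2 counts in doxycycline plus DMSO, the ratio to DMSO alone was 0.0757 (exact binomial 95% interval 0.00872 to 0.301, counting error only; edgeR adjusted p = 0.0262), and doxycycline plus entinostat stood 18.9 times higher than doxycycline plus DMSO (4.89 to 162; adjusted p = 0.00142). In DMSO, Fcgr3 no longer passed when any of 4 libraries was left out, the second or the third of doxycycline plus DMSO (adjusted p = 0.102 and 0.0749) or the first or the third of DMSO alone (0.0514 and 0.0946). The call in entinostat was lost without the third doxycycline plus entinostat library (adjusted p = 0.0516).

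**Figure D2:**
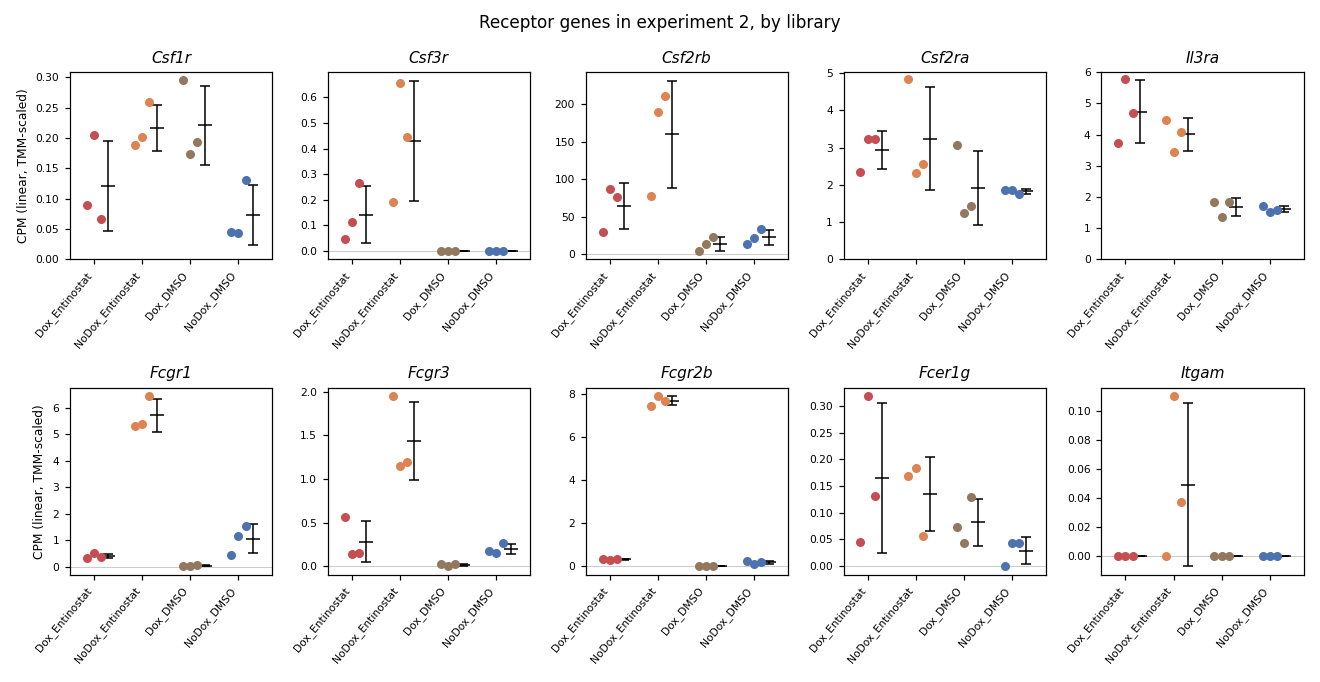
CPM of the 10 genes in experiment 2 on linear axes, from left to right doxycycline plus entinostat, entinostat alone, doxycycline plus DMSO and DMSO alone; points are libraries, and black bars the mean ± SD of 3. Fcgr1, Fcgr2b and Fcgr3 are highest in entinostat alone, and Csf3r has counts in entinostat groups only.

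Csf2rb, the shared chain of the IL-3, GM-CSF and IL-5 receptors, rose with entinostat and was the most abundant of the 10 genes. It had 29.5, 87.3 and 76.2 CPM in doxycycline plus entinostat, 77.5, 190 and 211 CPM in entinostat alone, 4.54, 13.4 and 22.9 CPM in doxycycline plus DMSO, and 13.1, 21.2 and 32.9 CPM in DMSO alone. Within each group the first library was the lowest, by more than 1.5 times, and each entinostat group lay above its DMSO group. Entinostat raised Csf2rb by 2.83 ± 0.59 on the log2 scale without doxycycline (edgeR adjusted p = 0.00167) and by 2.24 ± 0.58 with it (adjusted p = 0.00474). The doxycycline differences were -0.72 ± 0.56 in DMSO (adjusted p = 0.571, with the block 0.0161) and -1.31 ± 0.56 in entinostat (adjusted p = 0.0982), and those groups overlapped. Leaving out the first entinostat library brought the difference in entinostat to -1.65 (adjusted p = 0.0217), leaving out the first doxycycline plus DMSO library gave -1.32 (adjusted p = 0.0327), and leaving out both gave -1.64 (adjusted p = 0.00198).

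Csf2rb2, the neighbouring IL-3-specific copy of the mouse, shares 17.1% of the 50-base stretches of Csf2rb, so counts of the pair are uncertain. It had 4.01, 16.5 and 13.7 CPM in doxycycline plus entinostat, 15.8, 40.1 and 50 CPM in entinostat alone, 2.31, 5.79 and 8.47 CPM in doxycycline plus DMSO, and 3.98, 7.69 and 8.68 CPM in DMSO alone. It rose with entinostat alone (log2 fold change 2.38 ± 0.58, edgeR adjusted p = 0.00451), and in doxycycline-treated cells its change of 1.04 ± 0.56 did not pass the threshold (adjusted p = 0.122). Csf2rb had 5.30 to 7.36 times the counts of Csf2rb2 in doxycycline plus entinostat and 4.21 to 4.90 times in entinostat alone. The ratio was 1.97 to 2.70 in doxycycline plus DMSO and 2.75 to 3.79 in DMSO alone, so each entinostat group lay above its DMSO group.

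The alpha chains differed from each other. Il3ra had 3.74, 5.78 and 4.69 CPM in doxycycline plus entinostat, 4.48, 3.44 and 4.09 CPM in entinostat alone, 1.84, 1.34 and 1.85 CPM in doxycycline plus DMSO, and 1.71, 1.52 and 1.59 CPM in DMSO alone. Both entinostat groups lay above both DMSO groups, and within either drug the doxycycline and no-doxycycline libraries overlapped. Il3ra rose by 1.31 ± 0.23 on the log2 scale with entinostat alone (edgeR adjusted p = 0.000542) and by 1.5 ± 0.23 with doxycycline present (adjusted p = 0.000164), while doxycycline gave 0.06 in DMSO (95% interval -0.40 to 0.52) and 0.24 in entinostat (-0.20 to 0.68). Csf2ra had 2.35, 3.23 and 3.24 CPM in doxycycline plus entinostat, 4.83, 2.32 and 2.56 CPM in entinostat alone, 3.07, 1.25 and 1.44 CPM in doxycycline plus DMSO, and 1.87, 1.87 and 1.75 CPM in DMSO alone. The highest values of Csf2ra in the entinostat-only and the doxycycline plus DMSO groups came from the 2 libraries that stood apart. Its changes with entinostat were 0.82 ± 0.36 without doxycycline (edgeR adjusted p = 0.0783) and 0.62 ± 0.36 with it (adjusted p = 0.151), and without both of those libraries they were 0.41 (adjusted p = 0.119) and 1.11 (adjusted p = 0.000628). With doxycycline, Csf2ra differed by 0.07 in DMSO (95% interval -0.65 to 0.78) and by -0.14 in entinostat (-0.83 to 0.56), not called, and by -0.44 and 0.27 without those libraries, where both signs turned.

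Csf3r, the G-CSF receptor gene, had 2, 5 and 12 counts in doxycycline plus entinostat and 9, 36 and 24 counts in entinostat alone. None of the 6 libraries without entinostat held a count, so Csf3r passed the filter only through the entinostat libraries. Csf3r was at least 20.1-fold higher in entinostat alone than in DMSO alone (edgeR adjusted p = 0.00167) and at least 6.3-fold higher in doxycycline plus entinostat than in doxycycline plus DMSO (adjusted p = 0.0106). Its log2 difference between doxycycline plus entinostat and entinostat alone was -1.60 ± 0.68 (adjusted p = 0.109), and -1.95 without the first entinostat library (adjusted p = 0.0332).

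Csf1r, the CSF-1 receptor gene, had 4, 9 and 3 counts in doxycycline plus entinostat, 9, 11 and 14 counts in entinostat alone, 12, 8 and 9 counts in doxycycline plus DMSO, and 2, 2 and 6 counts in DMSO alone. DMSO alone lay below both entinostat alone and doxycycline plus DMSO, without overlap. Csf1r rose with entinostat alone (log2 fold change 1.53 ± 0.56, edgeR adjusted p = 0.0393), a call lost without any one of the entinostat-only libraries (adjusted p = 0.0544, 0.0706 and 0.114), without the first or second DMSO library (0.143 each), without the second or the third doxycycline plus DMSO library (0.0514 and 0.0535), without a filter on low counts (0.0964) and by DESeq2 (0.0568). The other changes did not pass: 1.55 ± 0.57 with doxycycline in DMSO (adjusted p = 0.131), -0.84 ± 0.52 with doxycycline in entinostat (0.232) and -0.86 ± 0.53 with entinostat in doxycycline-treated cells (0.174). Exons of Csf1r overlap 873 bp of Hmgxb3 on the opposite strand, and the library kit does not mark strand, so reads of the pair cannot be told apart there.

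Fcer1g, whose product FcγRI and FcγRIII need for signalling, and Itgam did not pass the filter. Fcer1g had 2, 14 and 6 counts in doxycycline plus entinostat, 8, 10 and 3 in entinostat alone, 3, 2 and 6 in doxycycline plus DMSO, and 0, 2 and 2 in DMSO alone. Entinostat alone lay above DMSO alone without overlap, and the test without a filter gave an edgeR adjusted p of 0.0931. Itgam had 0, 6 and 2 counts in entinostat alone and none in the other 9 libraries, and 3450 bp of its exons are shared with Gm49368 on the same strand. Fcgr4, another activating IgG receptor gene, had 0, 2 and 0 counts in doxycycline plus entinostat, 5, 5 and 9 in entinostat alone, and none in the DMSO groups.

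Counted over the members, doxycycline in DMSO lowered 3 of the 8 tested, where 5.53% of all genes tested were called lower. With the replicate number as a block, Csf2rb was called lower too (edgeR adjusted p = 0.0161), in a fit that called 7.61% lower. Of the 10 members, 3 had doxycycline lower without overlap (14.3% of all genes tested) and 1, Csf1r, had it higher (11.5%). In entinostat, doxycycline lowered 3 of the 8, where 15.1% of all genes were called lower, and 3 of 10 were lower without overlap (19.4% of all genes). Entinostat without doxycycline raised 7 of the 8, where 30.3% of all genes were called higher, and 9 of 10 were higher without overlap (33.8% of all genes). With doxycycline present, entinostat raised 6 of the 8, where 33.9% of all genes were called higher, and 6 of 10 were higher without overlap (35.4% of all genes). The shares cover only genes that passed the filter, while the 10 members include Fcer1g and Itgam, which did not. Fcer1g is among the 9 of 10. Leaving out both libraries that stood apart gave 3, 5, 7 and 7 members called in these comparisons, in fits that called 13.9% and 35.7% of all genes lower with doxycycline in DMSO and in entinostat, and 36.2% and 43.1% higher with entinostat without and with doxycycline. These counts and the medians that follow include Csf3r, whose comparison with doxycycline in DMSO has no count in either group. Csf3r passed the filter only through the entinostat libraries, so its rise is no support for the counts of members raised by entinostat. Fcgr2b, Fcgr3 and Csf1r were not tested when only the 2 DMSO groups were fitted, so they too passed with the help of entinostat libraries. Their rises are thus no support for these counts or for the medians with entinostat either. When only the groups compared were fitted, Csf1r and Csf3r were not tested for entinostat without doxycycline. For entinostat with doxycycline, Csf1r, Csf3r and Fcgr3 were not tested. Median log2 changes of the tested members, with groups without counts set at their bounds, were -0.36, -1.45, 2.64 and 2.45, against 0.05, -0.08, 0.07 and 0.14 over all genes. The comparisons share groups: DMSO alone and doxycycline plus DMSO each serve as the base of an entinostat comparison as well as taking part in a doxycycline comparison.

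**Figure D3:**
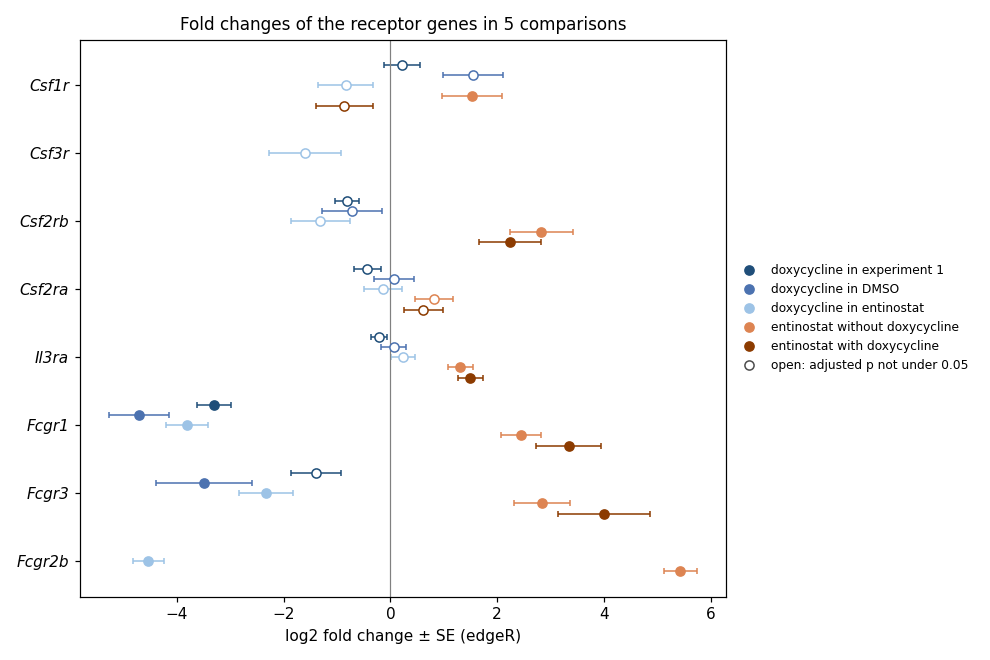
Log2 fold changes ± SE from edgeR for the 8 members tested in at least 1 comparison; filled points passed an adjusted p of 0.05, and comparisons with a group without counts are not drawn. Fcgr1 and Fcgr3 lie left of 0 for doxycycline and right of 0 for entinostat, and Il3ra passed the threshold in the 2 entinostat comparisons only.

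The interaction, which is the log2 change with doxycycline under entinostat less the change under DMSO, passed the threshold for none of the 8 members tested in edgeR, against 0.272% of all genes tested. At an unadjusted p under 0.05 there was 1, Csf1r, with a log2 difference of -2.39 ± 0.78 (adjusted p = 0.302), and DESeq2 and limma-voom also called 0. For Fcgr1 the difference was 0.89 with a 95% interval of -0.51 to 2.30, for Fcgr3 it was 1.17 (-0.86 to 3.21), for Csf2rb -0.59 (-2.13 to 0.95) and for Il3ra 0.18 (-0.46 to 0.82). Fcgr2b and Csf3r had at least 1 group without counts and are given by their adjusted p alone (0.404 and 1). These intervals are wide, and they leave room for differences of 2-fold and more for Fcgr1, Fcgr3 and Csf2rb. Without both libraries that stood apart the values for Csf1r and Csf2rb were -2.23 (edgeR adjusted p = 0.0544) and -1.34 (adjusted p = 0.0569). The value for Csf2ra was 0.70 (edgeR adjusted p = 0.0836), against -0.21 with all libraries. The fit without both called 7972 of 15478 genes for the interaction, 21.5% higher and 30% lower. With all libraries 41 of 15051 were called, so the interaction over all genes depends heavily on those libraries.

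For the listed genes that follow, the background is the share of all genes tested: with doxycycline, 5.26% were called higher in experiment 1, 3.77% in DMSO and 8.96% in entinostat, and 8.36%, 5.53% and 15.1% lower. With entinostat, 30.3% were called higher and 16.9% lower without doxycycline, and 33.9% higher and 29.9% lower with it. Some listed genes passed the filter only through entinostat libraries, so their rises with entinostat are no support for the counts of genes that rose. Of the genes that act downstream of Fc receptors, 10 of 19 tested fell in experiment 1, 10 of 21 in DMSO and 15 of 21 in entinostat, and none rose in any of the 3. Lcp2, the adaptor SLP-76, fell in these comparisons with log2 fold changes of -3.97 ± 0.30, -5.66 ± 0.29 and -4.26 ± 0.27 (edgeR adjusted p = 0.00116, 4.86e-07 and 1.42e-05). Tyrobp, the adaptor DAP12, had 0 counts above the table's smallest value with doxycycline in experiment 1 and none in doxycycline plus DMSO, at least 21.5-fold and at least 9.13-fold lower (adjusted p = 0.00459 and 0.0122). The kinase gene Lyn fell too (-0.99 ± 0.07 in experiment 1 and -1.54 ± 0.26 in entinostat). With entinostat alone, 6 of 21 rose and 3 fell, among them Cd247, the zeta chain (3.23 ± 0.31), with a higher level, and Dok1, a docking protein (-0.88 ± 0.15), with a lower one. With entinostat in doxycycline-treated cells 6 rose and 7 fell.

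Other cytokine receptor genes moved both ways with doxycycline: 3 rose and 4 fell of 21 tested in experiment 1, 3 rose and 5 fell of 22 in DMSO, and 1 rose and 7 fell of 22 in entinostat. Il9r, the IL-9 receptor gene, averaged 6.30 ± 1.95 CPM in doxycycline plus entinostat and 1.38 ± 0.363 CPM in entinostat alone, and 0.420 ± 0.221 CPM in doxycycline plus DMSO and 0.0802 ± 0.0446 CPM in DMSO alone (SD, n = 3 libraries each). It rose in all 3 doxycycline comparisons, by 3.20, 2.35 and 2.18 on the log2 scale (edgeR adjusted p = 0.00352, 0.0149 and 0.00244). With entinostat, 10 rose and 4 fell of 22 without doxycycline, and 6 rose and 5 fell with it. Epor, the erythropoietin receptor gene, fell in both (-1.55 ± 0.13 and -1.92 ± 0.13, adjusted p = 2.89e-06 and 5.55e-07), and Il18r1 rose by 4.48 ± 0.40 and by 3.43 ± 0.39. Of 26 genes of cytokine receptor signalling, 1 rose and 5 fell with doxycycline in experiment 1, 1 rose and 4 fell in DMSO, and 1 rose and 10 fell in entinostat. With entinostat, 5 rose and 5 fell without doxycycline, and 2 rose and 15 fell with it, Stat5a among these (-1.71 ± 0.26).

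Among genes for the receptors' ligands, Csf2, which encodes GM-CSF, averaged 2.18 ± 0.559 CPM in doxycycline plus entinostat and 2.30 ± 0.925 CPM in entinostat alone, against 0.0154 ± 0.0134 CPM in doxycycline plus DMSO and 0.0587 ± 0.0334 CPM in DMSO alone (SD, n = 3 libraries each). It rose by 5.23 ± 0.51 with entinostat alone (edgeR adjusted p = 7.03e-06). Il3 had 7 counts over the 3 doxycycline plus entinostat libraries, 58 over the 3 of entinostat alone, and none in either DMSO group. Il3, Csf2 and the ligand gene C3 had at most 8 counts over either DMSO group and passed the filter only through entinostat libraries. Their rises are thus no support for the counts of ligand genes that rose. Of 6 ligand genes tested, 5 rose and 1 fell with entinostat alone, 5 rose with entinostat in doxycycline-treated cells, and 2 and 4 fell with doxycycline in DMSO and in entinostat. In experiment 1, 2 of 3 fell, Icam1 and Icam2, which encode ligands of leukocyte integrins (-2.24 ± 0.15 and -1.81 ± 0.18).

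Itgb2, the partner chain of Itgam, fell with doxycycline, with log2 fold changes of -2.13 ± 0.13 in experiment 1, -2.97 ± 0.29 in DMSO and -2.54 ± 0.28 in entinostat (edgeR adjusted p = 0.000882, 2.37e-05 and 0.000159). Its change with entinostat was -0.14 ± 0.26 without doxycycline and 0.29 ± 0.27 with it, neither past the threshold (adjusted p = 0.707 and 0.353). At 29.2 CPM per kb in DMSO alone, Itgb2 was thus present where Itgam had no count. Of the 15 leukocyte integrin and cofactor genes tested, Itgb2 among them and among those that fell with doxycycline, 1 rose and 4 fell with doxycycline in experiment 1, 4 fell in DMSO, and 5 fell in entinostat. With entinostat, 5 rose and 2 fell without doxycycline, and 5 rose and 5 fell with it. Of other Fc receptor genes, 1 of 3 tested fell with doxycycline in experiment 1, 2 of 5 in DMSO and 3 of 5 in entinostat, and none rose. With entinostat, 4 of these 5 rose without doxycycline, and 4 rose and 1 fell with it. Among them, Ms4a2, the beta chain of the IgE receptor, fell with doxycycline (-2.28 ± 0.28 in experiment 1 and -3.28 ± 0.88 in DMSO), and rose by 3.55 ± 0.70 with entinostat alone. Its level of 5.53 ± 3.8 CPM in doxycycline plus entinostat, against 16.7 ± 12.2 CPM in entinostat alone (SD, n = 3 libraries each), was not a called difference. Fcer1a, its alpha chain, averaged 44.8 ± 18.1 CPM in doxycycline plus entinostat and 47.8 ± 40.6 CPM in entinostat alone, against 2.99 ± 3.75 CPM in doxycycline plus DMSO and 3.84 ± 1.66 CPM in DMSO alone (SD, n = 3 libraries each).

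Markers of other blood cells moved with the same groups, and their part in the receptor results was not tested. Summed over 13 macrophage and monocyte markers, libraries held 31.1 to 46.5 CPM in doxycycline plus entinostat and 58.4 to 62.7 CPM in entinostat alone, against 13.7 to 16.7 CPM in doxycycline plus DMSO and 18.7 to 21.2 CPM in DMSO alone. Of 5 such markers tested, 5 rose with entinostat alone, among them Lyz2 (log2 fold change 3.48), Cd14 (1.75), Cd68 (1.62) and Ccr2 (1.46), and 4 rose with doxycycline present. With doxycycline, 2 of 5 fell in DMSO, Lyz2 (-3.10) and Cd14 (-2.60), and 2 of 5 fell in entinostat, Lyz2 (-3.41) and Cd68 (-1.61). The defining macrophage gene Adgre1 had 5 counts over doxycycline plus entinostat, 6 over entinostat alone, 0 in doxycycline plus DMSO and 2 in DMSO alone. Mast cell and basophil markers summed to 632 to 709 CPM in doxycycline plus entinostat and 1310 to 1460 CPM in entinostat alone, against 409 to 515 CPM in doxycycline plus DMSO and 595 to 640 CPM in DMSO alone. Most of this sum was Il1rl1, at 534 CPM in doxycycline plus entinostat, 1220 CPM in entinostat alone, 246 CPM in doxycycline plus DMSO and 369 CPM in DMSO alone, and Gata2, at 71.7, 87.6, 222 and 245 CPM in the same groups, which fell by 1.48 on the log2 scale with entinostat alone. Neutrophil and granule markers reached at most 4.33 CPM in any library, B cell markers at most 2.34 CPM, and T and NK cell markers at most 1.68 CPM. These low sums were higher with entinostat too. Neutrophil and granule markers held 3.48 to 4.33 CPM in entinostat alone, against 0.195 to 0.382 CPM in DMSO alone. B cell markers held 2.3 to 2.34 CPM against 0.472 to 0.546 CPM. T and NK cell markers held 0.908 to 1.15 CPM against 0 to 0.135 CPM. With doxycycline present, entinostat libraries also lay above DMSO libraries for each of these lists. In experiment 1, macrophage and monocyte markers summed to 10.8 to 17.6 CPM with doxycycline and 13.8 to 18.6 CPM without it. Ccr2 made up most of that sum, at 12.9 CPM with doxycycline and 13.3 CPM without, while Cd68 (0.896 CPM with, 2.31 CPM without) and Cd14 (0.0781 CPM with, 0.352 CPM without) fell, with log2 fold changes of -1.36 and -2.15, as 2 of 4 such markers tested. In experiment 1, mast cell and basophil markers summed to 469 to 581 CPM with it and 544 to 669 CPM without. Erythroid markers summed to 7340 to 8060 CPM with doxycycline and 5230 to 5470 CPM without it in experiment 1. In experiment 2 they summed to 6450 to 8600 CPM in doxycycline plus entinostat, 4460 to 4500 CPM in entinostat alone, 5730 to 7750 CPM in doxycycline plus DMSO and 4400 to 4550 CPM in DMSO alone, so both doxycycline groups lay above both groups without it. Tfrc alone held 4590 CPM with doxycycline and 3000 CPM without in experiment 1, and 2420, 2230, 3890 and 2660 CPM in these groups of experiment 2. With doxycycline, 6, 7 and 6 of 14 erythroid markers rose in experiment 1, in DMSO and in entinostat, and none fell. With entinostat, 5 rose and 4 fell without doxycycline, and 4 rose and 7 fell with it.

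Over the 18 libraries, likeness to a member was measured as the root mean square difference of log2 CPM, centred within each experiment, among 12640 genes. Closest to Fcgr1 were Clec10a, a macrophage lectin gene, at 0.38, Tnfrsf13b at 0.42 and Tnfaip8l2 at 0.5, where the median gene differed by 2.15. Closest to Csf2rb were the integrin chain gene Itgb7 at 0.37, Capn2 at 0.46 and Atp8b2 at 0.47, with a median of 1.44. Fcgr3 was nearest to Klhl6 at 0.47, Gm30648 at 0.49 and Gask1b at 0.55 (median 1.56). Il3ra was nearest to Tmem79 at 0.15, 1110051M20Rik at 0.17 and Polr3gl at 0.19 (median 0.77), Csf2ra to 4632404H12Rik at 0.21, Gm10501 and AW146154 at 0.26 each (median 0.69), and among the genes near Csf1r were Card19 at 0.45 and Dcaf6 at 0.46 (median 0.74). The libraries share groups and experiments, so these distances are descriptions.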

How the data were processed

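The values are gene-level read counts as the authors deposited them, 1 table for each of 2 experiments, from libraries made from polyadenylated RNA with a kit that does not mark strand, per the labels' protocols. The submitters' processing notes name STAR, DESeq2, bcl2fastq 2.17.1.14 and mm10 without roles; the counter and annotation are not given in the sources used here. The table of experiment 1 has no value under 1.

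Each experiment was fitted separately with edgeR 4.0.16 in R 4.3.3 (TMM, filterByExpr, quasi-likelihood F test, group means), which kept 13811 and 15051 genes; experiment 2 used all 12 libraries in 1 fit. Tests were two-sided, with Benjamini-Hochberg adjustment over all genes tested and a threshold of 0.05. The 95% intervals of log2 changes took the SE as normal, so with 3 libraries per group they are too narrow. Alternatives were other scalings and filters, DESeq2 1.42.0, limma-voom (limma 3.58.1), a replicate block, fits of only the groups compared, and left-out libraries. The fit was tested on simulated data. Of log2 changes of 1 it found 46% in experiment 1 and 20% for doxycycline in DMSO, and of changes of 2 it found 91% and 84%. Changes near 1 that were not called may thus have been missed. Folds against a group without counts used 3 counts over that group; reads without molecular identifiers are not independent, so floors and counting intervals cover counting error only. Library totals were 82.7 to 114 M and 43.1 to 48.9 M counts.

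Replicate numbers were checked by correlating each library's departures from its group mean. In experiment 1 libraries with the same number correlated at 0.829, 0.724 and 0.313, and for doxycycline in DMSO at 0.334, 0.267 and 0.102, all over 0.1, so these numbers were taken as pairing. For the other comparisons the correlations were not all over 0.1. Entinostat without doxycycline came close, at 0.336, 0.315 and 0.096. Libraries with different numbers correlated at up to 0.259 in experiment 1, 0.214 for doxycycline in DMSO and 0.216 for entinostat without doxycycline. Doxycycline in entinostat gave 0.065, 0.079 and 0.072 (different numbers up to 0.004), and entinostat with doxycycline 0.085, 0.029 and 0.084 (up to 0.065). The 0.1 cut parted near-equal cases, so pairing outside experiment 1 is uncertain.

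Exon lengths, positions and overlaps are from GENCODE release M21 for mm10. Every member was described in every comparison; of other listed genes, up to 4 called genes with the smallest adjusted p and the fixed genes Spi1, Csf2rb2, Fcgr4, Itgb2 and Tyrobp could be named. Adgre1 was chosen after its values were seen. The members and lists were chosen with earlier results of these data known. A few genes that the naming rule selects are not reported here.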

Additional observations from a re-analysis of the deposited data

How the results depend on the processing

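In experiment 1, where 1 member was called, 2 were called with no filter on low counts and 2 by DESeq2, 0 with a filter of at least 1 CPM in 3 libraries, under which Fcgr1 is not tested, and 4 with the replicate block; leaving out single libraries gave 1 to 3. Over all genes 7027 of 13811 were called with the block and 684 to 1508 without single libraries, against 1881. For doxycycline in DMSO the 3 calls became 1 when only the 2 groups compared were fitted, where fewer samples enter, and 2 to 3 without single libraries. For doxycycline in entinostat the 3 calls became 5 without the first doxycycline plus DMSO and entinostat libraries, and 2 to 5 without single libraries. Leaving out single libraries gave 6 to 8 for entinostat without doxycycline and 6 to 7 with doxycycline. The interaction gave 0 under each alternative run, in fits that called 9 to 7972 genes. Fits without single libraries called 3.43% to 6.39% of all genes lower for doxycycline in DMSO and 4.95% to 28.6% for doxycycline in entinostat. They called 26% to 32.9% higher for entinostat without doxycycline and 28.3% to 39.1% with it. The fit of only the 2 DMSO groups called 5.55% lower. Causes were not tested.

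For single members, 860 values under alternatives stayed on their side of the threshold, 18 newly passed it, 15 no longer passed it and no called value changed sign; 15 values changed sign without being called. A further 10 called values are not in these counts, as the member was not tested under the alternative (6 with only the 2 groups compared, 4 with at least 1 CPM in 3 libraries). In experiment 2 the replicate block gave 4 calls for doxycycline in DMSO (Csf2rb added), 4 for doxycycline in entinostat, where Csf2rb passed with an adjusted p of 0.00102, and 6 for entinostat without doxycycline, where Csf1r did not (adjusted p = 0.0527); it changed no other call of a tested member there. Over all genes the block called 7.61% lower with doxycycline in DMSO and 22.7% lower with doxycycline in entinostat. It called 32.7% higher with entinostat without doxycycline and 38.8% higher with doxycycline present. Outside experiment 1 pairing is uncertain, so the numbers may mark nothing shared. Scaling by library size alone put the median log2 change of all genes at 0.32 for entinostat without doxycycline and 0.28 with it, against 0.07 and 0.14, and at -0.22 for doxycycline in entinostat, against -0.08. Without the first doxycycline plus DMSO and entinostat libraries, 9569 genes were called for doxycycline in entinostat, against 3614 with all libraries. Low counts, under 20 per library in most groups, limit every statement on Csf1r, Csf3r, Fcer1g, Itgam, Fcgr2b and Fcgr3.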
